A study of Mus musculus with 27 samples.

Results

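The 10 genes described here encode cyclins and cyclin-dependent kinases (CDKs) of the cell cycle: Ccnd1, Ccnd2, Ccne1, Ccne2, Ccna2, Ccnb1, Ccnb2, Cdk1, Cdk2 and Cdk4. They were found by matching the Ensembl identifiers of the count table to these symbols, which gave 10 of 55414 genes. The matching used no measured value, but the members were chosen with earlier results of these data known. All 10 passed the low-count filter, which kept genes averaging 10 counts or more over the libraries. In the 13 livers without CCl4 alone, their mean counts ran from 15.0 for Ccnb1 to 821 for Ccnd1.

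A cyclin is the regulatory subunit that switches on its CDK, and the cell cycle is ordered by which cyclin is present. D cyclins act with Cdk4 in G1, E cyclins with Cdk2 at the start of DNA replication, cyclin A2 in S and G2, and B cyclins with Cdk1 at entry into mitosis. Hepatocytes of the adult liver are mostly quiescent and re-enter the cycle after injury, when other liver cells can divide as well.

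The study asked how inhibition of hyaluronan synthesis changes gene expression in a mouse liver injured by carbon tetrachloride (CCl4), a toxicant activated in hepatocytes. Poly(A) RNA was sequenced from the whole liver of 27 female Balb/c mice of 8 weeks of age in 8 groups, for which the labels name no engineered allele. The groups without CCl4, all given intraperitoneal olive oil, were control (4 mice, with PBS in the tail vein), 4MU (3 mice), siLuc-LNP (3 mice) and siHAS2-LNP (3 mice). The others received intraperitoneal CCl4 for 2 weeks: CCl4 (2 mice), CCl4 + 4MU (4 mice), CCl4 + siLuc-LNP (4 mice) and CCl4 + siHAS2-LNP (4 mice). 4MU is 4-methylumbelliferone, an inhibitor of hyaluronan synthesis, given by gavage at 600 mg/kg each day in carboxymethyl cellulose. siHAS2-LNP is a lipid nanoparticle that carries siRNA against hyaluronan synthase 2, and siLuc-LNP carries non-targeting siRNA against luciferase. Both were injected into the tail vein at 1 mg/kg and then at 0.5 mg/kg, and all treatments began before the first CCl4 injection.

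Library totals ran from 7044386 counts in CCl4 + siHAS2-LNP mouse 4 to 29425937, so that 3 counts correspond to 0.102 to 0.426 CPM, counts scaled to a common library size. The siRNA target could not serve as a check of the labels, since Has2 had 0 counts in 25 of the 27 libraries and at most 2. The 7 hepatocyte markers summed to 123000 to 197000 CPM without CCl4 and to 73000 to 176000 CPM with it, and none of them was at 0. A pair of libraries stood apart in the cyclins and CDKs: CCl4 mouse 2 was among the top 2 of 27 livers for 8 of the 10 genes, and CCl4 + siLuc-LNP mouse 4 for 9 of the 10. In whole-liver RNA, fewer cells of a type and less RNA per cell cannot be told apart.

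The proximal promoters of Cdk1, Ccnb2, Ccnb1 and Cdk2 are shown because Cdk1, Ccnb2 and Ccnb1 had large CCl4 effects and Cdk2 a small one. Each sequence is the 160 bases before the start site, from RefSeq in build GRCm38.p6, which differs from the GRCm39 build of the counts, and is read 5′ to 3′ along the gene. Capitals mark letters of the motifs searched on both strands: TTTGAA or TTCGAA (the cell cycle genes homology region, CHR), CCAAT (the CCAAT box, ATTGG on the other strand), and TTTCCCGC, TTTGGCGC or TTTGGCGG (E2F, here found as GCGGGAAA). No searched motif overlapped another in these windows.
Cdk1 (minus strand, chr10:69352913-69353072): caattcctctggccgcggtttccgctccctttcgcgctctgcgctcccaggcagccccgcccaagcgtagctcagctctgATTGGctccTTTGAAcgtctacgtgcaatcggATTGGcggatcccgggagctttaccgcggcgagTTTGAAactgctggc
Ccnb2 (minus strand, chr9:70421555-70421714): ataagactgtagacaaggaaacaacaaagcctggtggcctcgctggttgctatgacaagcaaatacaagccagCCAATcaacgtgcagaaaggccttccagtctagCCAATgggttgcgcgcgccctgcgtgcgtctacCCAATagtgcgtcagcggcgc
Ccnb1 (minus strand, chr13:100786487-100786646): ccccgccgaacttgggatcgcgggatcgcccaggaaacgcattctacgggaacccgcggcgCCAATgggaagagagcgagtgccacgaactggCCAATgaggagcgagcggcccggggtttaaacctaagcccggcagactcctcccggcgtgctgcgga
Cdk2 (minus strand, chr10:128705052-128705211): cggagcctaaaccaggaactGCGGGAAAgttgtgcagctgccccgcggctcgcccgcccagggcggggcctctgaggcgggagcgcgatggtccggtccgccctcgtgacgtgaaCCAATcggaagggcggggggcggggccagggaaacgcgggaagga

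RefSeq promoters were available for 6 of the 10 genes, Ccne1 and Cdk4 in addition to these, and Ccnd1, Ccnd2, Ccne2 and Ccna2 had no entry. The motifs were counted over 300 bases, from 250 before to 50 after the start. The CHR letters were in the windows of Ccnb2 and Cdk1, at 2 places each, and in 19.23% of all 32851 promoters. CCAAT was at 3 places for Ccnb2, 3 for Cdk1, 2 for Ccnb1 and 1 for Cdk2, and in 37.41% of all promoters. The searched E2F letters were found at 1 place, in Cdk2, and in 2.1% of all promoters. Other forms of the E2F site were not searched, so their absence from the other promoters is not shown. In Ccnb2 the CCAAT boxes lay at -87, -54 and -21 from the start, and its CHR letters lay at -167 and 5, outside the printed stretch. These matches describe letters and not binding.

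Averaged over the 4 treatment arms with equal weight, CCl4 raised 9 of the 10 genes by the quasi-likelihood test of edgeR (p-values adjusted by Benjamini-Hochberg, threshold 0.05), when 26.3% of the 14114 tested genes were higher. Their median log2 fold change was 2.19, against -0.02 over all tested genes, and it was 2.19 as well with the gene at the count floor set to its bound. Ccnd2 was the exception (log2 fold change -0.04, adjusted p = 0.828). In the separate arms, 8 of the 10 genes were higher in CCl4 against control (18.0% of all tested genes), 6 in the 4MU arm (13.2%), 5 in the siLuc-LNP arm (13.0%) and 4 in the siHAS2-LNP arm (7.74%). None was lower in any arm past the threshold. Without either CCl4 mouse, 8 genes remained past it in CCl4 against control.

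Across the 8 groups the 10 genes fell into different patterns of response to CCl4. Ccna2, Ccnb1, Ccnb2 and Cdk1, of S phase to mitosis, were low without CCl4 and higher in each of the 14 CCl4 livers than in any of the 13 others. Ccne1 exceeded every liver without CCl4 in 12 of the 14 CCl4 livers, Ccne2 and Cdk2 in 5, Cdk4 in 3, and Ccnd1 and Ccnd2 in 2. These counts are given without the share of all tested genes that separate in this way, so they cannot be judged against it. Per kilobase of exon, the median over the 14 CCl4 livers was highest for Ccnb2 at 16.8 CPM, followed by Ccnd1 at 11.6 and Cdk4 at 11.5, and was lowest for Ccne2 at 0.457. Without CCl4, Cdk4 at 10.7 and Ccnd1 at 6.80 CPM per kilobase had the highest medians and Ccnb1 at 0.0896 the lowest. The length used is that of all annotated exons of a gene combined, not of the transcript expressed. Ranks and ratios between genes therefore depend on the annotation.

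**Figure D1:**
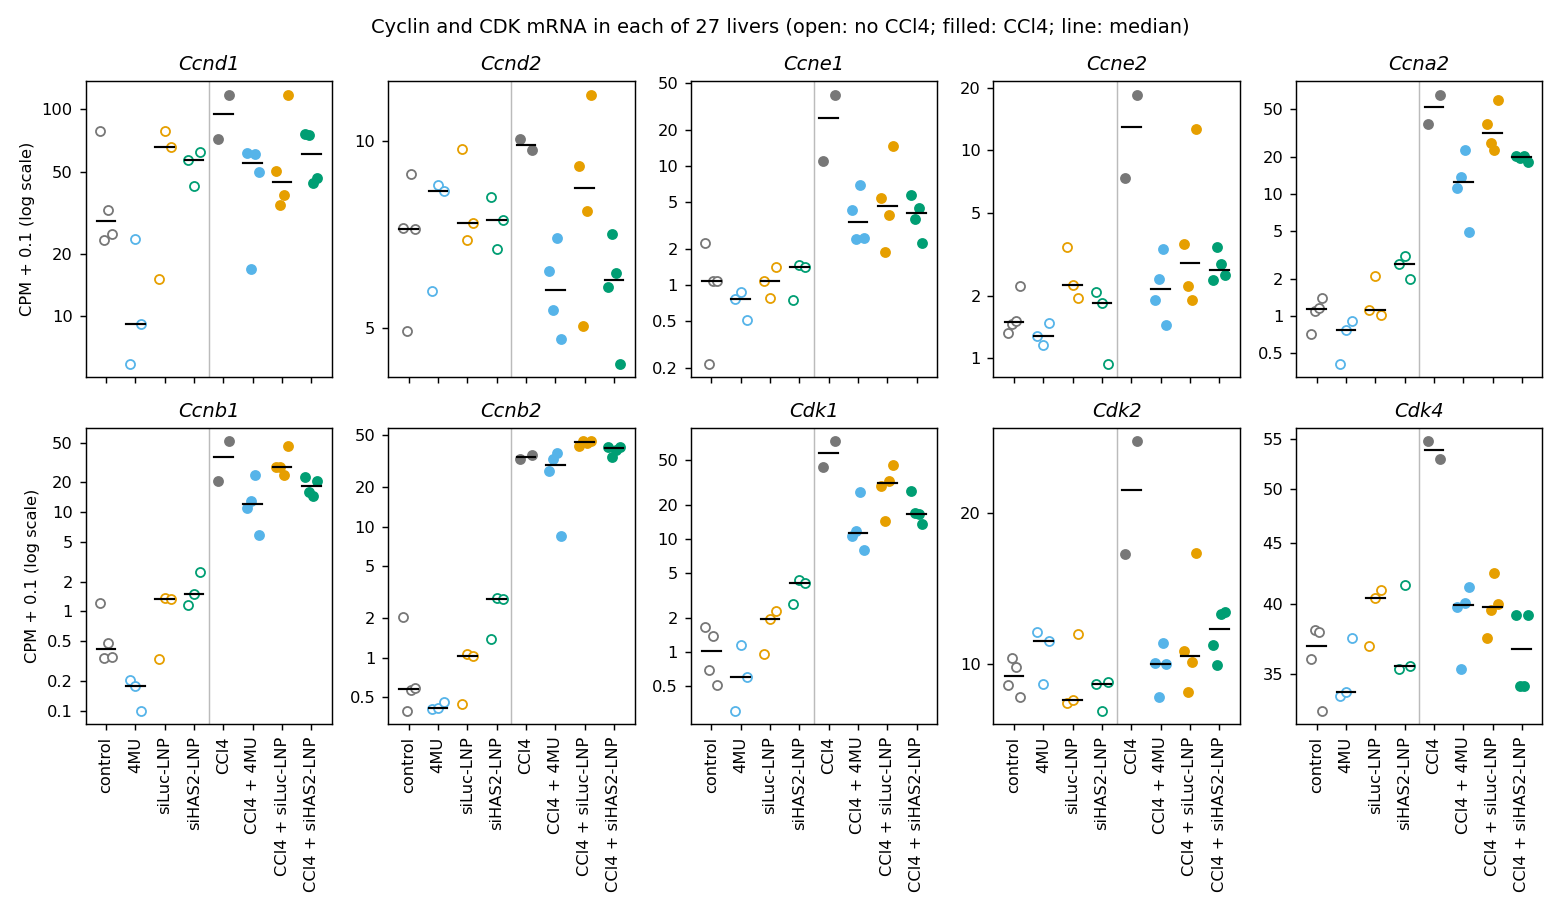
Level in CPM (with 0.1 added, log scale) of each of the 10 genes in the 27 livers by group. Points are mice, open without CCl4 and filled with CCl4, and lines are group medians. For Ccna2, Ccnb1, Ccnb2 and Cdk1 all 14 CCl4 livers lie above all 13 others, whereas for Ccnd2 only 2 do. The share of all tested genes that separate in this way is not given.

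**Figure D2:**
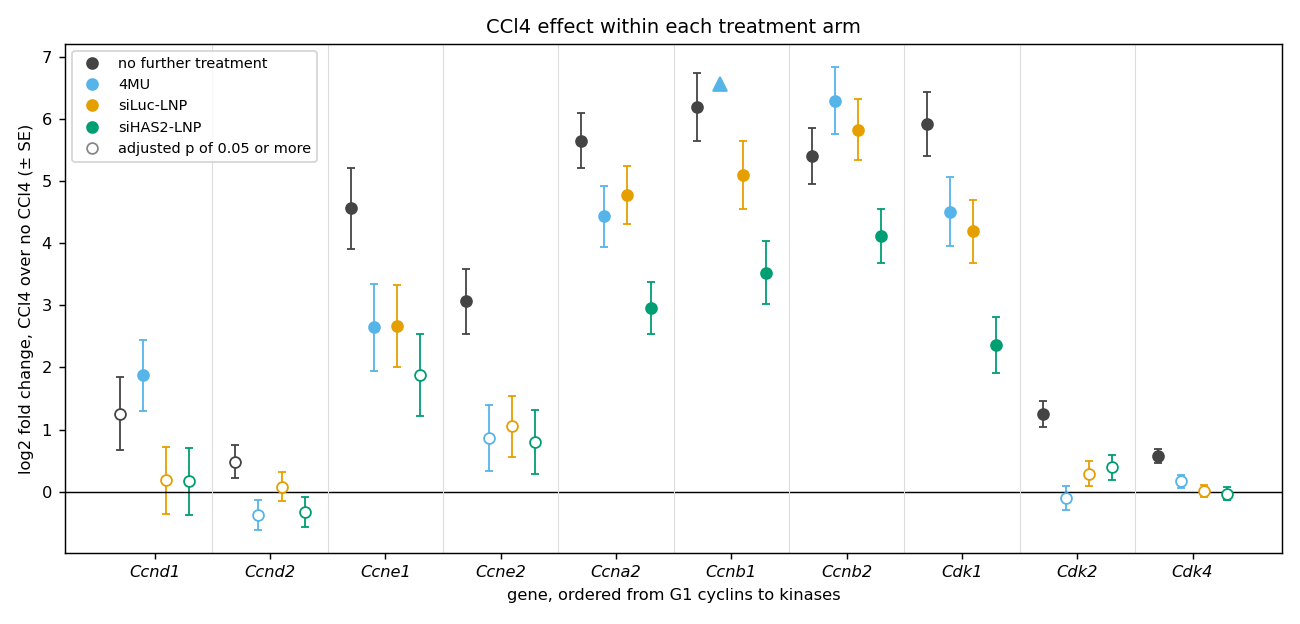
Log2 fold change of CCl4 livers over livers without CCl4 for each gene in each of the 4 treatment arms, with standard errors. Filled points passed the adjusted p of 0.05 and open points did not, and the triangle is a lower bound for Ccnb1 in the 4MU arm, where the livers without CCl4 had 0 to 2 counts.

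Ccnd1, on chromosome 7 (GRCm39, 144483668-144493662, minus strand), encodes the G1 cyclin D1, a partner of Cdk4. Its levels were 78.2, 23.2, 32.5 and 25.0 CPM in the control mice 1 to 4, and 71.8 and 118 CPM in the CCl4 mice 1 and 2. In CCl4 + 4MU it was 61.5, 16.8, 60.7 and 49.5 CPM, and in the 4MU mice without CCl4 5.79, 23.5 and 9.12 CPM. Control mouse 1 lay between the CCl4 mice, so these groups overlapped, as did the pair of 4MU groups. The siLuc-LNP mice had 15.1, 78.3 and 65.4 CPM and the siHAS2-LNP mice 56.7, 42.4 and 62.5 CPM. In CCl4 + siLuc-LNP the values were 50.5, 34.3, 38.4 and 117 CPM, and in CCl4 + siHAS2-LNP 76.3, 75.1, 43.8 and 46.6 CPM.

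The spread of Ccnd1 within a group was wide, from 15.1 to 78.3 CPM in siLuc-LNP alone, and every neighbouring pair of groups in the order of medians overlapped. That order ran from CCl4 (95.0 CPM) down to 4MU (9.12 CPM), with control next to last at 28.8. The difference of CCl4 from control was 1.26 on the log2 scale (SE 0.585, adjusted p = 0.0988). It passed the threshold without control mouse 1, in a fit of these groups alone and with no filter on low counts, and without CCl4 mouse 2 it was 0.88 with an adjusted p of 0.468. Ccnd1 rose in the 4MU arm (log2 fold change 1.87, SE 0.574, adjusted p = 0.0195), a call that was lost when 4MU mouse 1 or 4MU mouse 3 was left out. Of the exon bases of Ccnd1, 48.4% overlap LTO1 on the opposite strand, and the strand setting of the counting is not given in the sources used here. The overlap may thus have affected the counts of both genes.

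Ccnd2, on chromosome 6 (127102125-127129156, minus strand), encodes cyclin D2, the other D cyclin described here. Its levels moved in a narrow range, from 4.27 to 11.8 CPM over all 27 livers. The control mice had 7.13, 4.84, 8.75 and 7.11 CPM and the CCl4 mice 9.98 and 9.57. The 4MU, siLuc-LNP and siHAS2-LNP mice without CCl4 ran from 5.64 to 9.61 CPM together. With CCl4 they were 6.07, 5.24, 6.87 and 4.70 CPM for 4MU, 9.01, 4.94, 7.62 and 11.8 CPM for siLuc-LNP, and 5.71, 6.98, 6.02 and 4.27 CPM for siHAS2-LNP. Both CCl4 mice were above every control, CCl4 + 4MU and CCl4 + siHAS2-LNP mouse, yet in CCl4 against control the log2 difference of 0.49 (SE 0.262) did not pass the test (adjusted p = 0.156).

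Ccne1, on chromosome 7 (37797404-37808264, minus strand), encodes cyclin E1, which activates Cdk2 as cells enter S phase. Its levels were 2.14, 0.118, 0.982 and 0.981 CPM in control and 10.9 and 39.7 CPM in CCl4. The other groups without CCl4 ran from 0.405 CPM in 4MU to 1.37 CPM in siHAS2-LNP. In the treated CCl4 groups it was 4.13, 2.34, 6.84 and 2.38 CPM with 4MU, then 5.33, 1.81, 3.78 and 14.6 CPM with siLuc-LNP, and 5.64, 3.52, 4.34 and 2.14 CPM with siHAS2-LNP. CCl4 mouse 2 held the highest value of all 27 livers and mouse 1 the third highest, behind CCl4 + siLuc-LNP mouse 4. Ccne1 rose in CCl4 against control by 4.56 (SE 0.654, adjusted p = 9.52e-06), in the 4MU arm by 2.65 (SE 0.697, adjusted p = 0.00754) and in the siLuc-LNP arm by 2.67 (SE 0.665, adjusted p = 0.00473) on the log2 scale. The difference in the siHAS2-LNP arm was 1.88 (SE 0.657, adjusted p = 0.0608), which passed in a fit of these groups alone and with no filter on low counts.

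Ccne2, on chromosome 4 (11190303-11204947, plus strand), encodes the related cyclin E2. It was 1.22, 1.36, 1.41 and 2.13 CPM in control and 7.25 and 18.5 CPM in CCl4, with no overlap between these groups. The treated CCl4 groups ran from 1.35 to 3.25 CPM with 4MU, from 2.27 to 3.32 with siHAS2-LNP and from 1.80 to 12.6 with siLuc-LNP, where mouse 4 held the 12.6 and the other 3 mice were at 3.45 or below. In contrast to Ccne1, Ccne2 passed the test in CCl4 against control alone among the 4 arms (log2 fold change 3.07, SE 0.522, adjusted p = 7.92e-05). Its fold changes in the arms were not tested against each other beyond the interactions given later.

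Ccna2, on chromosome 3 (36619014-36626299, minus strand), encodes cyclin A2 of S and G2 phase. Control livers had 0.611, 1.00, 1.07 and 1.31 CPM and CCl4 livers 37.0 and 65.1 CPM. The values were 11.0, 13.7, 22.9 and 4.77 CPM in CCl4 + 4MU, 37.1, 26.2, 23.0 and 58.6 CPM in CCl4 + siLuc-LNP, and 20.4, 19.5, 20.2 and 18.3 CPM in CCl4 + siHAS2-LNP. Both CCl4 mice were above every CCl4 + 4MU and every CCl4 + siHAS2-LNP mouse, while they overlapped with CCl4 + siLuc-LNP. The CCl4 effect on the log2 scale was 5.66 (SE 0.449, adjusted p = 2.60e-09) against control, 4.44 (SE 0.491) in the 4MU arm, 4.78 (SE 0.463) in the siLuc-LNP arm and 2.96 (SE 0.417, adjusted p = 3.18e-05) in the siHAS2-LNP arm. Without CCl4, the siHAS2-LNP mice had 2.58, 3.02 and 1.91 CPM, all above the control mice, while 4MU ran from 0.307 to 0.810 and siLuc-LNP from 0.923 to 2.05 CPM.

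Ccnb1, on chromosome 13 (100915153-100923116, minus strand), encodes cyclin B1, the main partner of Cdk1 at entry into mitosis. It was 1.12, 0.236, 0.384 and 0.245 CPM in control and 20.6 and 52.1 CPM in CCl4. With CCl4 and a treatment it was 10.9, 12.9, 23.8 and 5.73 CPM for 4MU, 28.7, 28.5, 23.8 and 46.1 CPM for siLuc-LNP, and 22.8, 15.8, 14.4 and 20.4 CPM for siHAS2-LNP. Without CCl4, siLuc-LNP had 0.229 to 1.25 CPM and siHAS2-LNP 1.05 to 2.39 CPM. CCl4 mouse 1 lay within the range of each of the 4MU and siHAS2-LNP groups and below all CCl4 + siLuc-LNP mice. Ccnb1 rose in CCl4 by 6.20 on the log2 scale (SE 0.549, adjusted p = 8.82e-09), by 5.10 (SE 0.546) in the siLuc-LNP arm and by 3.53 (SE 0.501, adjusted p = 3.38e-05) in the siHAS2-LNP arm. The 4MU mice without CCl4 had 0 to 2 counts, so in that arm the mean of CCl4 + 4MU (13.3 CPM) was at least 94.5-fold higher than 3 counts per library (adjusted p = 1.47e-07).

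Ccnb2, on chromosome 9 (70314966-70328874, minus strand), encodes cyclin B2, the second mitotic B cyclin. It was 1.93, 0.295, 0.470 and 0.491 CPM in control and 32.4 and 34.9 CPM in CCl4. It was 26.3, 32.7, 36.2 and 8.40 CPM in CCl4 + 4MU, 41.1, 44.6, 43.0 and 44.7 CPM in CCl4 + siLuc-LNP, and 40.6, 33.6, 38.4 and 40.6 CPM in CCl4 + siHAS2-LNP. Apart from CCl4 + 4MU mouse 4, the CCl4 livers thus lay between 26.3 and 44.7 CPM, and all CCl4 + siLuc-LNP livers were above both CCl4 livers. Ccnb2 rose in the 4 arms by 5.41 (SE 0.457, adjusted p = 4.93e-09) against control, 6.30 (SE 0.542) with 4MU, 5.83 (SE 0.497) with siLuc-LNP and 4.11 (SE 0.435, adjusted p = 6.50e-07) with siHAS2-LNP. The pseudogene Ccnb2-ps, a near copy that could take reads, had 2 to 21 counts per library, and Ccnb1-ps had at most 2.

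Cdk1, on chromosome 10 (69170976-69236595, minus strand), encodes the kinase that drives mitosis. Its levels were 1.58, 0.590, 1.28 and 0.409 CPM in control and 43.2 and 73.9 CPM in CCl4. In the treated CCl4 groups they were 10.7, 11.7, 26.3 and 7.97 CPM with 4MU, 29.8, 14.5, 32.8 and 45.3 CPM with siLuc-LNP, and 26.8, 16.9, 16.5 and 13.5 CPM with siHAS2-LNP. The CCl4 mice were above all but 1 of these 12, CCl4 + siLuc-LNP mouse 4, which lay between them. Cdk1 rose by 5.92 (SE 0.513, adjusted p = 6.70e-09) in CCl4 against control, 4.51 (SE 0.554) in the 4MU arm, 4.2 (SE 0.506) in the siLuc-LNP arm and 2.36 (SE 0.455, adjusted p = 0.00100) in the siHAS2-LNP arm. Without CCl4, the siHAS2-LNP mice had 2.58, 4.29 and 4.01 CPM, all above the siLuc-LNP mice (0.858, 1.88 and 2.2 CPM) and the 4MU mice (0.205 to 1.05 CPM).

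Cdk2, on chromosome 10 (128533796-128540963, minus strand), encodes the partner of cyclins E and A. It was 8.96, 10.2, 9.74 and 8.50 CPM in control and 16.5 and 27.8 CPM in CCl4. In the treated CCl4 groups it was 9.94, 8.48, 10.9 and 9.89 CPM with 4MU, 10.5, 8.68, 10 and 16.6 CPM with siLuc-LNP, and 10.8, 9.86, 12.5 and 12.6 CPM with siHAS2-LNP. The 4MU, siLuc-LNP and siHAS2-LNP mice without CCl4 ran from 7.97 to 11.5 CPM. Only CCl4 + siLuc-LNP mouse 4 among these 12 reached the CCl4 mice. The rise in CCl4 against control was 1.25 on the log2 scale (SE 0.212, adjusted p = 7.37e-05).

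Cdk4, on chromosome 10 (126895180-126903789, plus strand), encodes the kinase of the D cyclins. It was 35.9, 38.0, 37.8 and 32.5 CPM in control and 54.7 and 52.8 CPM in CCl4, and in the other 6 groups it stayed between 33.4 and 42.4 CPM. The CCl4 mice were thus above all 25 other livers. Cdk4 rose in CCl4 against control by 0.58 (SE 0.115, adjusted p = 0.000433) on the log2 scale, the smallest of the 8 called changes in that comparison. Of its exon bases, 18.8% overlap Tspan31 on the opposite strand, as 17.5% of those of Ccna2 overlap Exosc9 and 15.2% of those of Ccne2 overlap Ints8.

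Markers of other liver cells moved with the CCl4 effect. Averaged over the 4 arms, where 26.3% of all tested genes were higher and 25.6% lower, the 6 stellate cell or myofibroblast markers had 5 higher and none lower, and their sum ran from 36.0 to 114 CPM without CCl4 and from 142 to 756 CPM with it. All 5 cholangiocyte markers were higher (29.5 to 77.0 CPM against 109 to 692 CPM), as were all 5 monocyte or infiltrating macrophage markers (39.6 to 179 CPM against 95.7 to 478 CPM). No marker of these lists was at 0 in all libraries, and their part in the cyclin results was not tested. Of the remaining lists, Kupffer cell markers had 4 of 5 lower, sinusoidal endothelium 3 of 5 higher and 1 lower, B and plasma cells 3 of 4 lower, erythroid cells 3 of 4 lower, T and NK cells 1 of 4 lower, neutrophils none of 4, and hepatocytes 1 higher and 3 lower of 7. Of 5 pancreatic acinar genes, 1 was tested and lower, and 1 was at 0 in all libraries.

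In livers given CCl4, the treatments that inhibit hyaluronan synthesis were next set against CCl4 alone. With 4MU, 8 of the 10 genes were lower, when 10% of all tested genes were. With siHAS2-LNP 6 were lower (7.33%), and with the non-targeting siLuc-LNP 0 were (0.191%), although 5 had an unadjusted p under 0.05 (14.2% of all tested genes) and DESeq2 called 2 (2.05%). The median log2 fold changes of the 10 genes were -1.31, -0.98 and -0.58, against 0.04, 0.02 and 0.01 over all tested genes. All of these comparisons use the same 2 CCl4 livers, so they are not independent, and leaving out CCl4 mouse 2 left 0 of the 10 genes past the threshold in each of them, as the calls over all tested genes went from 2580 to 177 with 4MU and from 2038 to 108 with siHAS2-LNP. The size of the differences depended on which CCl4 mouse was kept. Without CCl4 mouse 1, the log2 fold changes of Ccne1 were -3.35 with 4MU, -3.31 with siHAS2-LNP and -2.62 with siLuc-LNP. Without CCl4 mouse 2 they were -1.49, -1.46 and -0.76. Those of Ccnb2 moved little, being -0.45, 0.13 and 0.31 without CCl4 mouse 1 and -0.36, 0.21 and 0.41 without CCl4 mouse 2.

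**Figure D3:**
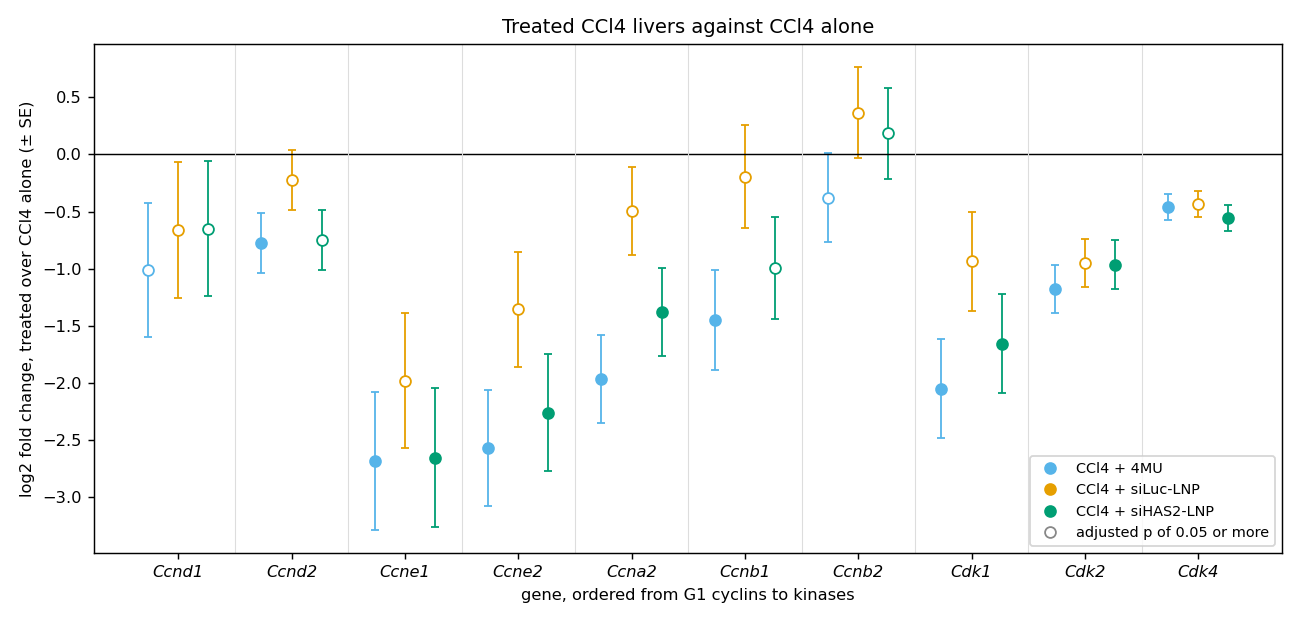
Log2 fold change of each treated CCl4 group over the CCl4 group, with standard errors. Filled points passed the adjusted p of 0.05. Ccne1 and Ccne2 lie lowest for 4MU and siHAS2-LNP, and no point of Ccnb2 and none of siLuc-LNP is filled.

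Among the 10 genes the E cyclins had the largest differences with 4MU and with siHAS2-LNP. Ccne1 fell by 2.68 (SE 0.600, adjusted p = 0.00425) with 4MU and by 2.65 (SE 0.605, adjusted p = 0.00622) with siHAS2-LNP, and its value with siLuc-LNP was -1.98 (SE 0.592, adjusted p = 0.121). Ccne2 fell by 2.57 (SE 0.510, adjusted p = 0.00193) with 4MU and by 2.26 (SE 0.513, adjusted p = 0.00601) with siHAS2-LNP. Without CCl4 mouse 2 the values with 4MU and siHAS2-LNP were -1.49 and -1.46 for Ccne1 (adjusted p = 0.265 and 0.322) and -1.76 and -1.46 for Ccne2 (adjusted p = 0.127 and 0.247).

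Ccna2 fell by 1.97 (SE 0.383, adjusted p = 0.00175) with 4MU and by 1.38 (SE 0.384, adjusted p = 0.0189) with siHAS2-LNP. Cdk1 fell by 2.05 (SE 0.433, adjusted p = 0.00294) with 4MU and by 1.66 (SE 0.434, adjusted p = 0.0136) with siHAS2-LNP. Without CCl4 mouse 2 they were -1.53 and -0.95 for Ccna2 (adjusted p = 0.0834 and 0.332) and -1.64 and -1.25 for Cdk1 (adjusted p = 0.103 and 0.251). Ccnb1 fell by 1.45 (SE 0.439, adjusted p = 0.0243) with 4MU, and its value with siHAS2-LNP was -0.99 (SE 0.443, adjusted p = 0.133). The call of Ccnb1 with 4MU was lost with DESeq2 (adjusted p = 0.0622), with only the compared groups (adjusted p = 0.0762), without CCl4 + 4MU mouse 1 or 4, and without CCl4 mouse 2, where its value was -0.66. Ccnb2 did not pass in any of these comparisons, with values of -0.38 (SE 0.389, adjusted p = 0.520), 0.37 (SE 0.398, adjusted p = 0.733) and 0.19 (SE 0.397, adjusted p = 0.797) for 4MU, siLuc-LNP and siHAS2-LNP.

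Among the kinases of G1 and S phase, Cdk2 fell by 1.18 (SE 0.211, adjusted p = 0.00103) with 4MU and by 0.96 (SE 0.213, adjusted p = 0.00512) with siHAS2-LNP, and it was -0.95 (SE 0.211, adjusted p = 0.0523) with siLuc-LNP. Cdk4 fell by 0.46 (SE 0.115, adjusted p = 0.00826) with 4MU and by 0.56 (SE 0.115, adjusted p = 0.00356) with siHAS2-LNP, calls that were lost without the low-count filter (adjusted p = 0.161 and 0.0567). Without CCl4 mouse 2 the values were -0.78 and -0.56 for Cdk2 (adjusted p = 0.0982 and 0.265) and -0.51 and -0.61 for Cdk4 (adjusted p = 0.0748 and 0.0518). Ccnd2 fell by 0.77 (SE 0.261, adjusted p = 0.0410) with 4MU, a call that was lost without either CCl4 mouse and without CCl4 + 4MU mouse 1, 2 or 4, and its value with siHAS2-LNP was -0.75 (SE 0.263, adjusted p = 0.0566). For Ccnd1 the value with 4MU was -1.01 (SE 0.586, adjusted p = 0.230).

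Marker levels differed between the same groups. The stellate cell or myofibroblast markers summed to 403 and 656 CPM in CCl4 mice 1 and 2, 142 to 414 CPM in CCl4 + 4MU, 245 to 756 CPM in CCl4 + siLuc-LNP and 168 to 263 CPM in CCl4 + siHAS2-LNP, where 3 of the 6 were lower than in CCl4. Hepatocyte markers summed to 128000 and 73000 CPM in CCl4 mice 1 and 2 and to 147000 to 176000 CPM in CCl4 + 4MU. With 4MU 3 of the 7 were higher, when 8.28% of all tested genes were. The monocyte or infiltrating macrophage list had 1 of 5 lower with either treatment, when 10% (4MU) and 7.33% (siHAS2-LNP) of all tested genes were. Yet its sum was 177 and 234 CPM in CCl4 and 253 to 478 CPM in CCl4 + 4MU. Kupffer cell markers summed to 231 and 268 CPM in the CCl4 mice and to 97.2 to 136 CPM in CCl4 + siHAS2-LNP, with 3 of 5 lower, while 2 of 5 sinusoidal endothelium and 1 of 5 cholangiocyte markers were lower there, when 7.33% of all tested genes were. Without CCl4 mouse 2, 1 Kupffer cell marker (Clec4f) was lower with siHAS2-LNP and no other marker passed with either treatment. The share of all tested genes in that fit is not given beside this count. None of these markers was at 0 in all libraries, and their part in the cyclin values was not tested.

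The siRNA against Has2 was compared with the non-targeting siRNA in CCl4 livers, which share the particle. By edgeR 0 of the 10 genes passed, when 1.09% of all tested genes passed in either direction, and 0 passed by DESeq2. By edgeR 3 had an unadjusted p under 0.05 (16.6% of all tested genes), which were Ccna2, Ccnd2 and Ccnb1. Ccna2 had a log2 fold change of -0.89 (SE 0.329, adjusted p = 0.167), and every CCl4 + siHAS2-LNP mouse (18.3 to 20.4 CPM) lay below every CCl4 + siLuc-LNP mouse (23.0 to 58.6 CPM). The value of Cdk1 was -0.72 (SE 0.373, adjusted p = 0.335). Ccne2 stood at -0.90 (SE 0.450, adjusted p = 0.316), and at 0.092 without CCl4 + siLuc-LNP mouse 4.

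CCl4 + 4MU against CCl4 + siHAS2-LNP gave 0 of the 10 genes past the threshold (1.22% of all tested genes), 0 at an unadjusted p under 0.05 (18.6%) and 0 by DESeq2. The log2 differences ran from -0.59 to 0.09 with a median of -0.33. Their standard errors, up to 0.534 for Ccne1, leave room for differences of either sign.

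Livers without CCl4 showed no change past the threshold. In 4MU against control 0 of the 10 genes passed (0.00709% of all tested genes), with 2 at an unadjusted p under 0.05 (6.84%), Ccnd1 (5.79 to 23.5 CPM against 23.2 to 78.2 CPM) and Ccnb1. In siLuc-LNP against control 0 passed (0.213%), none at an unadjusted p under 0.05 (6.8%). In siHAS2-LNP against siLuc-LNP 0 passed (0.0425%), with 2 at an unadjusted p under 0.05 (8.94%), and DESeq2 called 0 in each of these 3 comparisons. The largest values of the last comparison were those of Ccnb2 (1.54, SE 0.535, adjusted p = 0.349) and Cdk1 (1.11, SE 0.521, adjusted p = 0.535). Ccnb2 was 1.29, 2.74 and 2.69 CPM in siHAS2-LNP and 0.343, 0.968 and 0.923 CPM in siLuc-LNP, without overlap.

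Whether CCl4 acted differently within a treatment arm was tested by interactions. For 4MU, 1 of the 10 genes passed (5.67% of all tested genes): the CCl4 effect on Cdk2 was lower by 1.35 on the log2 scale (SE 0.289, adjusted p = 0.0139) with 4MU than without, being -0.10 in the 4MU arm and 1.25 against control. Its value without CCl4 mouse 2 was -0.94, with an adjusted p of 0.161. For siLuc-LNP against no treatment 0 passed (0.00709%), with 4 at an unadjusted p under 0.05 (10% of all tested genes) and 1 by DESeq2. The share of all tested genes called by DESeq2 is not given, so that count cannot be judged against it. For siHAS2-LNP against siLuc-LNP 0 passed (0.0354%), with 4 at an unadjusted p under 0.05 (11.4%), which were Ccna2, Ccnb1, Ccnb2 and Cdk1, and 0 by DESeq2.

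Because Ccnb2 and its partner kinase moved apart in the treated CCl4 livers, they were also set against each other within each liver, a choice made after the values were seen and so given without a test. Per kilobase of exon, Cdk1 relative to Ccnb2 was 0.508 and 0.807 in the CCl4 livers and 0.124 to 0.386 in the 12 treated CCl4 livers. Ccne1 relative to Ccnb2 was 0.205 and 0.697 in CCl4 and 0.0249 to 0.199 in the 12 others. Both CCl4 livers lay above all 12 in each of these ratios, for Ccne1 narrowly (0.205 against 0.199). In control livers these ratios were 0.311 to 1.04 for Cdk1 and 0.245 to 1.28 for Ccne1, from few counts. The other ratios computed overlapped between CCl4 and the 12 treated livers. Ccnb1 relative to Ccnb2 was 0.33 and 0.773 in CCl4 and 0.194 to 0.534 in the 12. Cdk2 relative to Cdk4 was 0.164 and 0.287 in CCl4 and 0.12 to 0.227 in the 12.

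**Figure D4:**
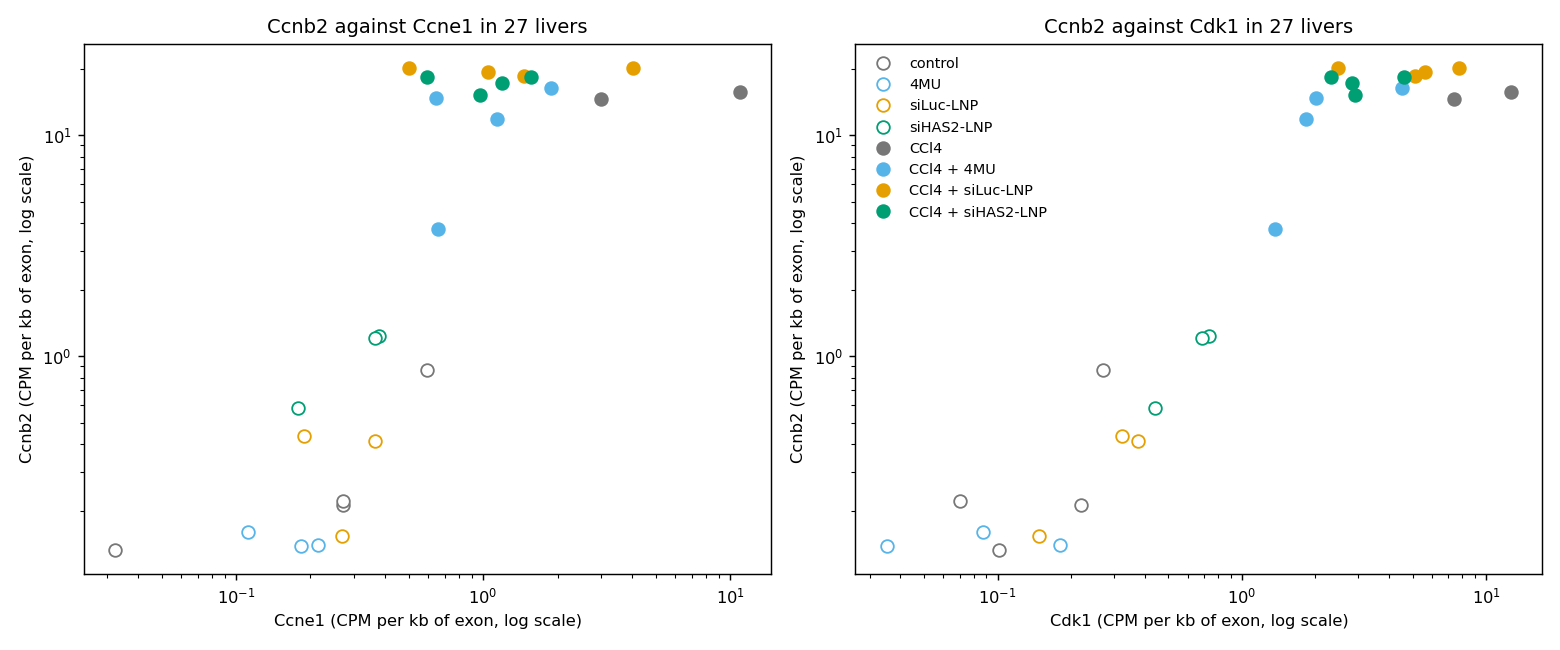
Ccnb2 against Ccne1 (left) and against Cdk1 (right) in the 27 livers, as CPM per kilobase of exon on log axes, with 1 point per mouse coloured by group. The 12 treated CCl4 livers have less Ccne1 and less Cdk1 relative to Ccnb2 than both CCl4 livers.

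Genes with patterns like those of 3 members were listed by Pearson's r of log2 CPM over the 27 libraries, as a description. For Cdk1 these were Spag5, Kif18b and Tpx2 (r = 0.981 each), which encode proteins of the mitotic spindle, and for Ccne1 they were Mcm2 (r = 0.952), Lig1 (r = 0.948) and Clspn (r = 0.946), which encode replication proteins. For Ccnd1 they were Fam83a (r = 0.835), Apbb1ip (r = 0.824) and Lair1 (r = 0.795). All libraries share the CCl4 contrast. With group means removed, r was 0.877, 0.796 and 0.812 for the 3 genes like Ccne1 and 0.693, 0.652 and 0.667 for those like Ccnd1, and for those like Cdk1 it was 0.694 (Spag5), 0.805 (Kif18b) and 0.794 (Tpx2). Between Ccnd1 and Cdk1 r was 0.672, and with group means removed it was 0.704.

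Regulators of the cyclin-CDK complexes were taken from lists of known genes, and their counts in the averaged CCl4 effect stand against 26.3% of all tested genes higher and 25.6% lower. Of 8 listed CDK inhibitors 6 were tested, and all 6 were higher with CCl4 averaged over the arms (median log2 fold change 1.23, against -0.02 over all genes). Cdkn1a, which encodes the p21 inhibitor, rose by 2.11 (SE 0.281, adjusted p = 1.01e-06) and Cdkn2c, an inhibitor of Cdk4 and Cdk6, by 1.62 (SE 0.0975, adjusted p = 1.03e-12). Cdkn1a was 2.54 to 8.54 CPM in control and 39.1 to 79.2 CPM in CCl4, without overlap. Cdkn3, a phosphatase that acts on CDKs, was 0.0427 to 0.713 CPM in control and 10.1 to 10.7 CPM in CCl4.

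Of the 8 genes of CDK phosphorylation, 6 were higher and none lower in the same comparison (median 0.65), among them Pkmyt1, a kinase that restrains Cdk1 (2.82, SE 0.257), and Cdc25b, a phosphatase that activates it (1.32, SE 0.146). Of 13 pocket protein and E2F genes 6 were higher and 3 lower (median 0.50). E2f1, a transcription factor of the G1 to S transition, rose by 2.35 (SE 0.183, adjusted p = 1.12e-10), as did E2f7, a repressor of the same family, by 3.04 (SE 0.346), and Tfdp1, a partner of E2F proteins, by 0.87 (SE 0.110). Of 11 genes of cyclin degradation 7 were higher and none lower (median 0.47), including Ube2c, an enzyme that works with the anaphase-promoting complex (4.44, SE 0.250). Cdc20, an activator of that complex, was 0.472 to 2.90 CPM in control and 61.7 to 86.4 CPM in CCl4.

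The 6 late cell-cycle transcription factors had 2 higher and 1 lower (median 0.21). Those 2 were Foxm1 (3.99, SE 0.241, adjusted p = 1.10e-12) and Mybl2 (2.15, SE 0.299, adjusted p = 1.88e-06), both activators of mitotic genes, and the lower gene was Lin37 (-0.35, SE 0.112, adjusted p = 0.0122). Of 13 other cell-cycle cyclins and CDKs, 10 were tested, with 5 higher and 2 lower (median 0.33). The former included Ccnf (1.64, SE 0.174), the CDK-binding subunit gene Cks1b (1.16, SE 0.144) and Ccng1 (0.73, SE 0.0963). The 14 transcriptional cyclins and CDKs, which do not drive the cycle, had 1 higher (Cdk12) and 2 lower (Ccnl1 and Ccnl2) with a median of -0.05.

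Against CCl4, where 10% of all tested genes were lower, CCl4 + 4MU livers had 7 of 13 pocket protein and E2F genes lower (median -0.94), 6 of 11 degradation genes (-0.66), 4 of 8 phosphorylation genes (-1.03), 4 of 6 late transcription factors (-1.26), 3 of 10 other cyclins and CDKs (-0.28) and 2 of 6 inhibitors (-0.60). In CCl4 + siHAS2-LNP, where 7.33% of all tested genes were lower, these counts were 4, 3, 1, 2, 3 and 2, with medians of -0.71, -0.31, -0.71, -1.12, -0.45 and -0.29. None of these genes was higher in either comparison. The transcriptional list had 1 higher and 1 lower with 4MU (median 0.10), when 8.28% of all tested genes were higher, and 1 higher and none lower with siHAS2-LNP (median 0.18), when 7.11% were. E2f1 fell by 2.07 (SE 0.346, adjusted p = 0.000763) with 4MU and by 2.00 (SE 0.349, adjusted p = 0.00120) with siHAS2-LNP, and was 27.2 to 35.4 CPM in CCl4, 4.84 to 11.5 in CCl4 + 4MU and 6.93 to 9.32 in CCl4 + siHAS2-LNP. It also fell with the non-targeting siLuc-LNP, by 1.61 (SE 0.345, adjusted p = 0.0398), to 4.98 to 18.5 CPM. Against CCl4, siLuc-LNP livers had 1 pocket protein or E2F gene and 1 other cyclin or CDK lower, when 0.191% of all tested genes were, and none of the remaining lists had a called gene. These comparisons rest on the same CCl4 livers as those of the 10 genes. The counts that follow, from a fit without CCl4 mouse 2, are given without the share of all tested genes in that fit. They cannot be judged against it. In a setting added after the data were seen, without CCl4 mouse 2, the 68 tested regulators had 4 lower with 4MU (Ccng1, Cks1b, Cdkn2c and E2f1), 1 lower with siHAS2-LNP (E2f1) and 0 with siLuc-LNP, and none was higher. E2f1 was then at -1.89 (adjusted p = 0.0324), -1.83 (adjusted p = 0.0442) and -1.41 (adjusted p = 0.309), and without CCl4 mouse 1 it passed in all 3 comparisons.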

How the data were processed

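Whole-liver RNA of 27 mice was sequenced as paired-end, poly(A)-selected libraries from a directional kit. The authors deposited raw counts for 55414 genes, made with Trimmomatic 0.39, HISAT2, GRCm39 with Ensembl release 105, and featureCounts, which left out multimapping reads. The strand setting is not given in the sources used here. Symbols and positions came from GENCODE vM39, which matched 54749 identifiers. Genes averaging 10 counts or more over the libraries (14114) were tested with edgeR 4.0.16 (R 4.3.3): TMM, all 8 groups in 1 fit without covariates, the quasi-likelihood test and Benjamini-Hochberg adjustment at 0.05. CPM are counts over TMM-scaled totals of tested genes, and log2 CPM used a prior count of 2. A group with 3 counts or fewer in every library was taken to be at the floor. Groups came from the sample labels, and each animal is 1 replicate. Depth was 7044386 to 29425937 counts (median 22109517). Each standard error is the absolute log2 fold change divided by the square root of the F statistic of the quasi-likelihood test. It therefore includes the spread between mice. All 34 pairs of libraries within groups differed by more than sampling noise (chi-square per degree of freedom 15.5 to 422).

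The named genes were all 10 members, at most 3 genes of each regulator list with the smallest adjusted p for the averaged CCl4 effect, and the 3 genes most like Ccnd1, Ccne1 and Cdk1. The members and lists were chosen with earlier results of these data known. The scripts were tested on simulated data. Alternatives were DESeq2 1.42.0, DESeq2 size factors used by edgeR, no filter on low counts, only the compared groups, the replicate number as a block, and each mouse left out. The regulator and marker lists without each CCl4 mouse were added after seeing the data.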

Additional observations from a re-analysis of the deposited data

Results flagged for a closer look

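Among the 40 groups of 4 mice, 1 gene and group had a sample far from the others by Dixon's ratio on the log scale. Ccnd1 in CCl4 + 4MU mouse 2, at 16.8 CPM, was the lowest of its group, whose other mice had 61.5, 60.7 and 49.5 CPM. Chance flags about 5% of such groups. The CCl4 effect on Cdk2 differed between the 4MU arm and untreated mice by -1.35 on the log2 scale, by the interaction test (edgeR, adjusted p = 0.0139), and this value rested on CCl4 mouse 2, without which it was -0.94 (adjusted p = 0.161).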

How the results depend on the processing

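Of 890 recomputed fold changes over 62 gene and comparison pairs, 838 kept their direction and side of the threshold, 28 lost the threshold, 23 gained it and 1 reversed, that of Ccne2 in CCl4 + siHAS2-LNP against CCl4 + siLuc-LNP, which ran from -1.20 to 0.092 with a mouse left out and was 0.092 without CCl4 + siLuc-LNP mouse 4. The counts of changed genes, out of 10, moved as follows, and the causes were not tested. These counts are given without the share of all tested genes in each setting, so they cannot be judged against it. In CCl4 + siLuc-LNP against CCl4 the count was 0, but 2 with DESeq2, 4 without the low-count filter and 1 with the replicate block. Without the filter it was 2 in 4MU against control, 1 in siHAS2-LNP against siLuc-LNP, 3 in CCl4 + siHAS2-LNP against CCl4 + siLuc-LNP and 4 in the siHAS2-LNP interaction, where the main counts were 0. The 4MU interaction gave 3 with DESeq2, 3 without the filter and 2 with only the compared groups, against 1. The siLuc-LNP interaction gave 1 with DESeq2 and 2 without the filter, against 0. The fit without the filter tested 31177 genes, and its averaged CCl4 effect called 8 members instead of 9, without Cdk4, which it also lost in CCl4 + 4MU and CCl4 + siHAS2-LNP against CCl4. Without the filter and with only the compared groups, the count was 9 in CCl4 against control, with Ccnd1, and 5 in the siHAS2-LNP arm, with Ccne1. In CCl4 + 4MU against CCl4, DESeq2 and only the compared groups gave 7, both without Ccnb1. With each mouse left out, the counts ran from 8 to 9 in CCl4 against control, 5 to 6 in the 4MU arm, 5 to 6 in the siLuc-LNP arm, and stayed at 4 in the siHAS2-LNP arm and 9 in the averaged effect. They ran from 0 to 8 in CCl4 + 4MU against CCl4, 0 to 7 in CCl4 + siHAS2-LNP against CCl4, 0 to 4 in CCl4 + siLuc-LNP against CCl4, 0 to 2 in the 4MU interaction and 0 to 2 in the siLuc-LNP interaction. The 0 in the first 2 came without CCl4 mouse 2, and the 4 and the 2 for siLuc-LNP without CCl4 + siLuc-LNP mouse 4. A lone CCl4 mouse was assumed to vary like the other groups. The replicate numbers did not pair the mice: over 83 pairs of libraries with the same number the correlation of deviations had a median of -0.02 (-0.32 to 0.293), and 4 of 27 libraries correlated best with their own number. With the replicate block the counts were unchanged or moved by less than 1.5 times other than in CCl4 + siLuc-LNP against CCl4. The effect averaged over the arms was not refitted with only the compared groups, since it uses all 8. At 7044386 counts the shallowest library resolves no level below 0.426 CPM.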
